A study of Caenorhabditis elegans with 104 samples.

Results

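The genes described here are 46 neuronal genes of the nematode Caenorhabditis elegans that build synapses, make and carry transmitters, keep up axons or sense touch and smell. They were listed by sequence name for their roles in neurons. The rule uses no measured value, but the list was drawn up with earlier results of these data known. All 46 were found among the 18889 genes measured. They were read by 90 of 22490 probes, with several probes for 20 genes (up to 6) and 1 probe for 26. They fall into 9 classes by role: vesicle release (9 genes), transmitter synthesis and transport (9), neuropeptide processing (3), calcium channel subunits and transmitter receptors (6), touch receptor neuron genes (4), neuronal identity factors (2), axon outgrowth and transport (6), sensory transduction (5) and G protein alpha subunits (2).

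The RNA of single wild-type worms (strain N2, grown at 20 °C) was hybridised, 1 worm per 2-colour array, against RNA pooled from 15 worms aged 4 days. Day 4 had 13 worms, days 8, 12, 14 and 16 had 17 worms each, day 20 had 14 and day 24 had 9. No worm was a mutant or was treated, and age is the only variable in the labels. Each age was harvested once from 1 cohort, so age and harvest day cannot be told apart. Values are read as log2 of worm (Cy5) over pool (Cy3), so 1 unit is a doubling. No source used here states this direction or the log base, and a reversed sign would turn every direction below. No dye swap was made.

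A neuron signals when a vesicle loaded with transmitter fuses with its membrane, which needs the SNARE proteins syntaxin, synaptobrevin and SNAP-25 and the factors that prime and trigger them. Each class of neuron holds the enzymes and carriers of its own transmitter, and motor proteins bring vesicles down the axon to the synapse. The touch receptor neurons of this worm sense gentle touch through a channel of the MEC-4 family and are packed with unusual microtubules, and adult worms make no new neurons.

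Arrays differed little in centre and width (medians from -0.0338 to 0.00860, median absolute deviations from 0.579 to 0.601) and lacked 9 to 464 probe values each. The median correlation of an array with others of its age was 0.0371 to 0.198 at day 4, 0.199 to 0.285 at day 8 and 0.195 to 0.523 from day 12 on. The pool was also 4 days old, so day 4 ratios share no difference in age from the pool, while ratios of later ages do. These correlations therefore do not show that day 4 arrays were poorer or their worms more variable. All comparisons with day 4 rest on these 13 arrays and share them, and the trend over age is therefore also given without day 4. Markers of other tissues moved to unlike degrees over the same ages. Over the trend, 19 of 28 germline and oocyte genes fell and 1 rose, 11 of 19 intestine genes fell and 1 rose, and 11 of 27 muscle contraction genes fell and 4 rose. Of 18 hypodermis genes 4 fell and 4 rose, and of 13 pharynx genes none fell and 2 rose. Of all genes 14.2% fell and 13.7% rose (27.8% called). The median change of these lists at day 24 against day 4 was -0.49 for the germline, -1.51 for the intestine, -0.19 for muscle, 0.14 for the hypodermis and -0.05 for the pharynx. Because arrays report shares of the worm's whole RNA, the part of these shifts in the neuronal values was not tested, and fewer neurons and less RNA per neuron cannot be told apart.

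Over the 7 ages members were called in both directions over the trend, at a share near that of all genes. Those that rose were 3 release, 3 axon, 2 channel or receptor, 1 touch and 1 sensory gene. Those that fell were 2 transmitter genes and 1 receptor gene, and most members did not pass the test. With limma (Benjamini-Hochberg adjusted p under 0.05 over all genes), 13 of 46 genes changed in a linear trend over age, which is 28.3% against 27.8% of all genes. Of these, 10 rose (13.7% of all genes rose) and 3 fell (14.2% of all genes fell). The median slope of all 46 was 0.0051 log2 units per day against 0.0002 over all genes, and 30 of 46 slopes were above 0. Asked for any change over the 7 ages, limma's F test called 17 of 46 genes (37% against 33% of all genes). The called shares of both tests lie near those of all genes. Neither test called 27 members, and the share of all genes called by neither was not taken. The age means of a member spanned a median of 0.69 log2 units, against 0.77 over all genes, and 10 members (21.7%) spanned at least 1 unit, against 30.6% of all genes.

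**Figure D1:**
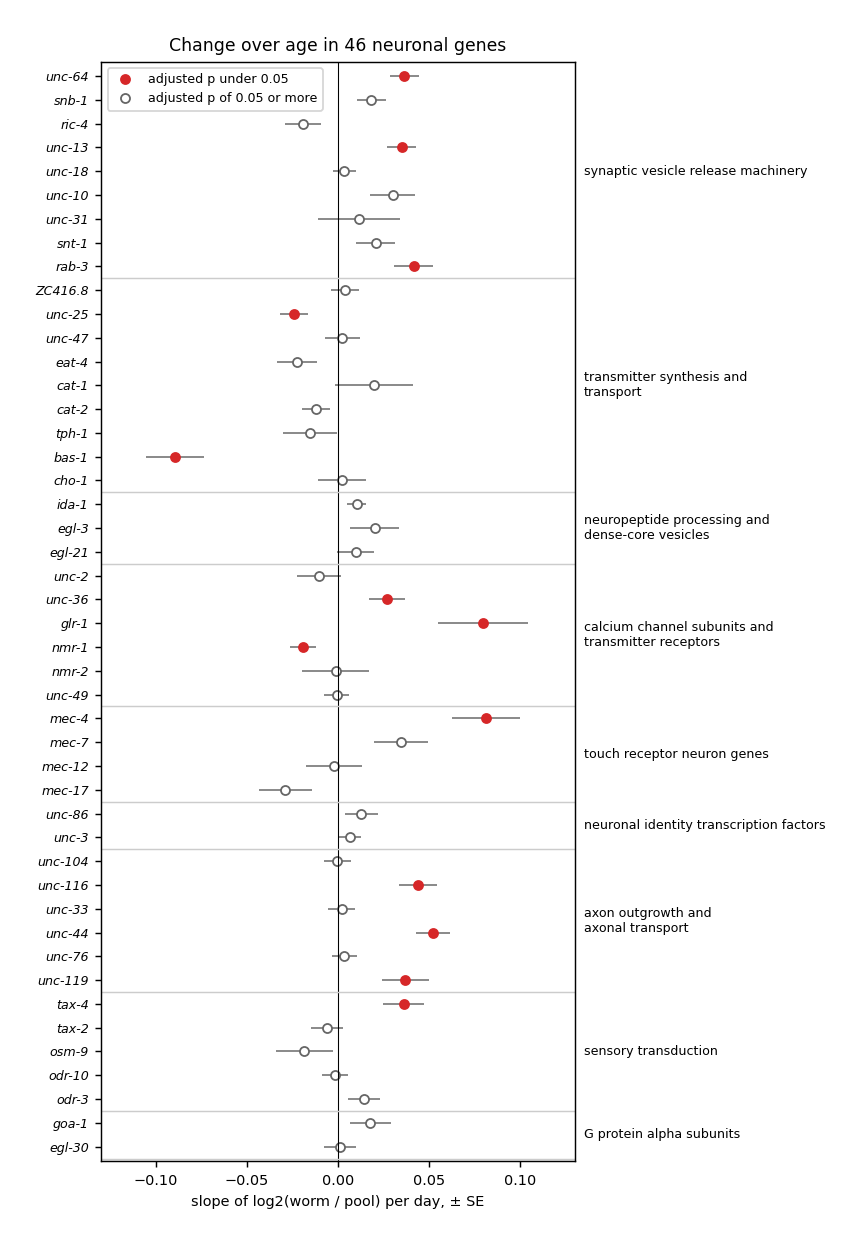
Slope of the log2 ratio per day of age for each of the 46 neuronal genes, grouped by role, with bars of 1 standard error. Filled red points mark the 13 genes with a limma adjusted p under 0.05, of which 10 lie right of 0 and 3 (bas-1, unc-25 and nmr-1) left of it.

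Against day 4, members were called at every later age. At day 8, 2 of 46 were higher and 4 lower (13% in all), where 5.21% of all genes were higher and 6.14% lower (11.4% in all). At day 12, 8 were higher and 7 lower (32.6%), where 11.5% of all genes were higher and 11.2% lower (22.7%). At day 14, 7 were higher and 3 lower (21.7%), where 10.5% of all genes were higher and 9.64% lower (20.1%). After quantile normalization the day 14 split was 6 higher and 6 lower. At day 16, 6 were higher and 7 lower (28.3%), where 10.2% of all genes were higher and 9.89% lower (20.1%). At day 20, 12 were higher and 4 lower (34.8%), where 9.98% of all genes were higher and 10.5% lower (20.5%). At day 24, 5 were higher and 3 lower (17.4%), where 8.35% of all genes were higher and 8.14% lower (16.5%). The called genes are marked in the map of age means. Of the 46 genes, 2 were higher than at day 4 at all 6 later ages (snb-1 and unc-119), 2 were lower at all 6 (unc-25 and mec-17), and 25 were called at none. The 6 comparisons share the day 4 worms. The shares of all genes with these patterns were not taken, so whether the members differ from other genes in them was not tested.

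**Figure D2:**
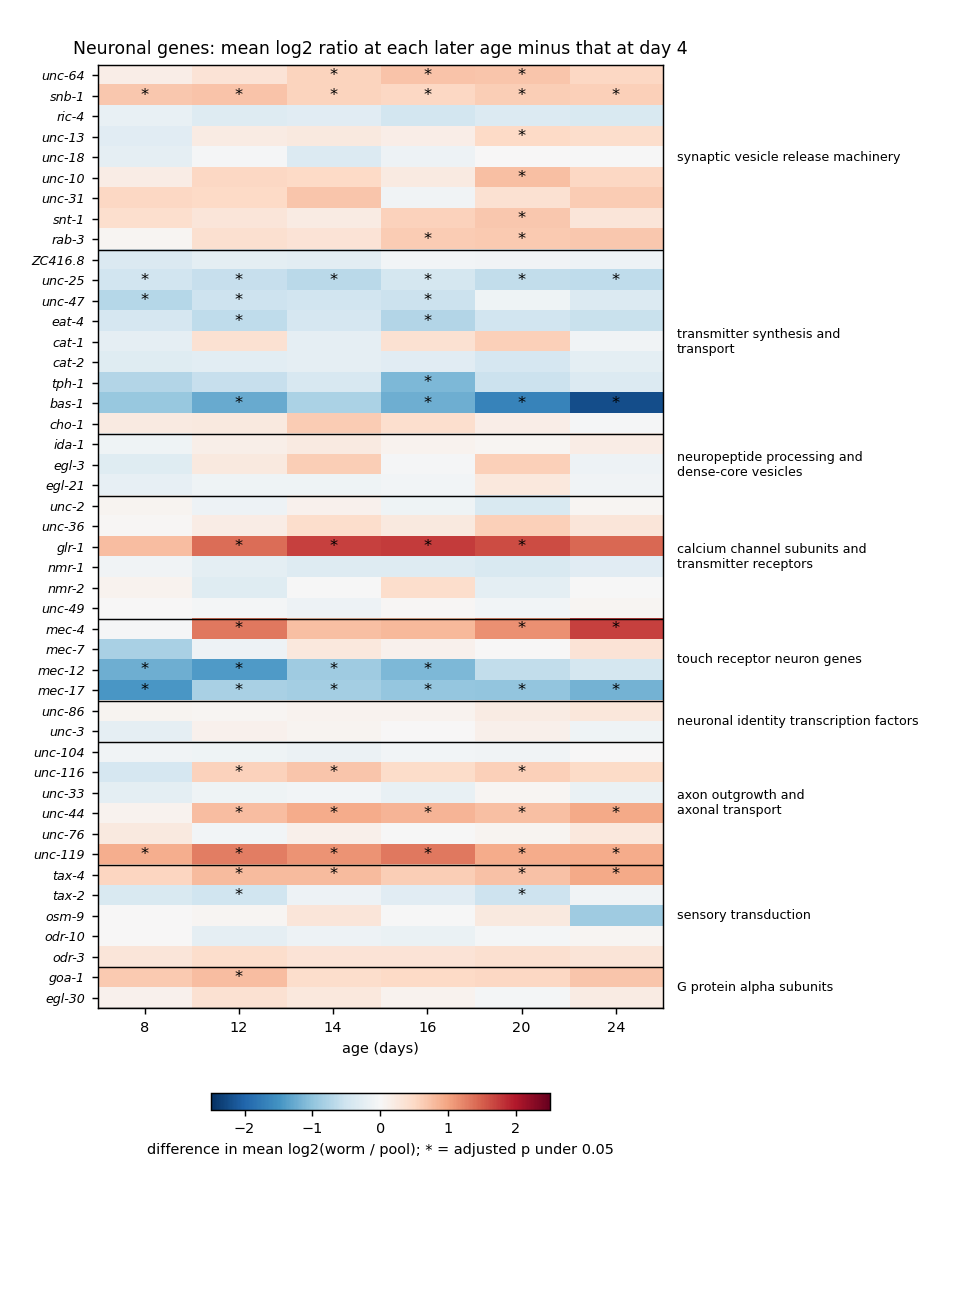
Mean log2 ratio of each neuronal gene at days 8 to 24 minus its mean at day 4, with genes in rows grouped by role and ages in columns. Red is higher and blue lower than at day 4, a star marks an adjusted p under 0.05, and the darkest cell is bas-1 at day 24, 2.22 below day 4.

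Of 9 vesicle release genes, 3 rose over the trend and none fell (33.3% called, against 27.8% of all genes), 8 of 9 slopes were above 0, and the class median relative to day 4 was 0.17, 0.34, 0.33, 0.22, 0.62 and 0.51 at days 8, 12, 14, 16, 20 and 24. The 3 that rose were unc-64 (F56A8.7), which encodes the plasma membrane SNARE syntaxin, unc-13 (ZK524.2), which encodes a protein that primes vesicles for fusion, and rab-3 (C18A3.6), which encodes a small GTPase on synaptic vesicles. In unc-64 the lowest, median and highest worm had -0.41, 0.69 and 1.71 at day 4, 0.08, 0.84 and 1.74 at day 8, 0.34, 1.01 and 2.08 at day 12, 0.27, 1.25 and 1.99 at day 14, 0.17, 1.40 and 2.14 at day 16, 0.74, 1.43 and 1.81 at day 20, and 0.52, 1.13 and 1.93 at day 24. The worms spread widely at each age and the groups overlapped, yet 14 of 14 day 20 worms lay above the day 4 median. The slope was 0.0365 ± 0.00809 per day (SE; adjusted p = 0.000194; 0.73 over 20 days), and the difference from day 4 was largest at day 16, 0.72 ± 0.17 (SE; adjusted p = 0.000954).

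In unc-13 the lowest, median and highest worm had -0.46, 0.51 and 1.04 at day 4, -0.64, 0.21 and 0.71 at day 8, -0.38, 0.57 and 2.03 at day 12, -0.20, 0.59 and 1.71 at day 14, -0.40, 0.64 and 1.43 at day 16, 0.24, 0.97 and 1.36 at day 20, and 0.41, 0.76 and 1.43 at day 24. The ratios dipped at day 8 and were highest at day 20, with overlap between all ages. The slope was 0.0350 ± 0.00785 per day (SE; adjusted p = 0.000239; 0.70 over 20 days), day 12 lay 0.49 ± 0.15 (SE; adjusted p = 0.0188) above day 8, and day 20 lay 0.50 ± 0.17 (SE; adjusted p = 0.0256) above day 4. The slope of rab-3 was 0.0415 ± 0.0107 per day (SE; adjusted p = 0.00143; 0.83 over 20 days), with day 20 higher than day 4 by 0.66 ± 0.24 (SE; adjusted p = 0.0397). Without day 4, unc-64, unc-13 and rab-3 were still called, with slopes of 0.0309 per day (adjusted p = 0.0202), 0.0466 per day (adjusted p = 0.000201) and 0.0423 per day (adjusted p = 0.0122).

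The vesicle SNARE synaptobrevin, encoded by snb-1 (T10H9.4), took another course: it was higher than at day 4 at every later age, and no later step was called. Its lowest, median and highest worm had -1.41, -0.66 and 0.65 at day 4, -1.06, 0.24 and 0.89 at day 8, -0.42, 0.39 and 0.71 at day 12, -0.66, 0.16 and 0.57 at day 14, -0.62, 0.07 and 0.85 at day 16, -0.28, 0.11 and 0.88 at day 20, and -0.21, 0.21 and 0.48 at day 24. Day 4 worms were the lowest group, and 9 of 9 day 24 worms lay above the day 4 median although the ranges overlapped. The difference was 0.67 ± 0.16 (SE; adjusted p = 0.00246) at day 8 and 0.60 ± 0.19 (SE; adjusted p = 0.0203) at day 24, and the slope, 0.0183 ± 0.00806 per day (SE; adjusted p = 0.0801; 0.37 over 20 days), did not pass the test. Without day 8 the slope was 0.0274 per day and passed (adjusted p = 0.0128). Without 1 day 4 worm (replicate 3) the day 24 difference was 0.52 with an adjusted p of 0.0507. The active zone gene unc-10 (T10A3.1) and the calcium sensor gene snt-1 (F31E8.2), which encodes synaptotagmin, were higher than at day 4 at day 20 alone, by 0.76 ± 0.27 (SE; adjusted p = 0.0366) and 0.67 ± 0.24 (SE; adjusted p = 0.0359). Their slopes were called without day 24 (adjusted p = 0.0452 for unc-10 and 0.0494 for snt-1), and that of snt-1 also without day 8 (adjusted p = 0.0452). The SNAP-25 gene ric-4 (Y22F5A.3), the syntaxin partner gene unc-18 (F27D9.1) and unc-31 (ZK897.1), which acts in dense-core vesicle release, were called in no comparison with day 4. A single day 16 worm had an unc-31 ratio of -8.94, and the next lowest worm of that age was at -1.69.

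**Figure D3:**
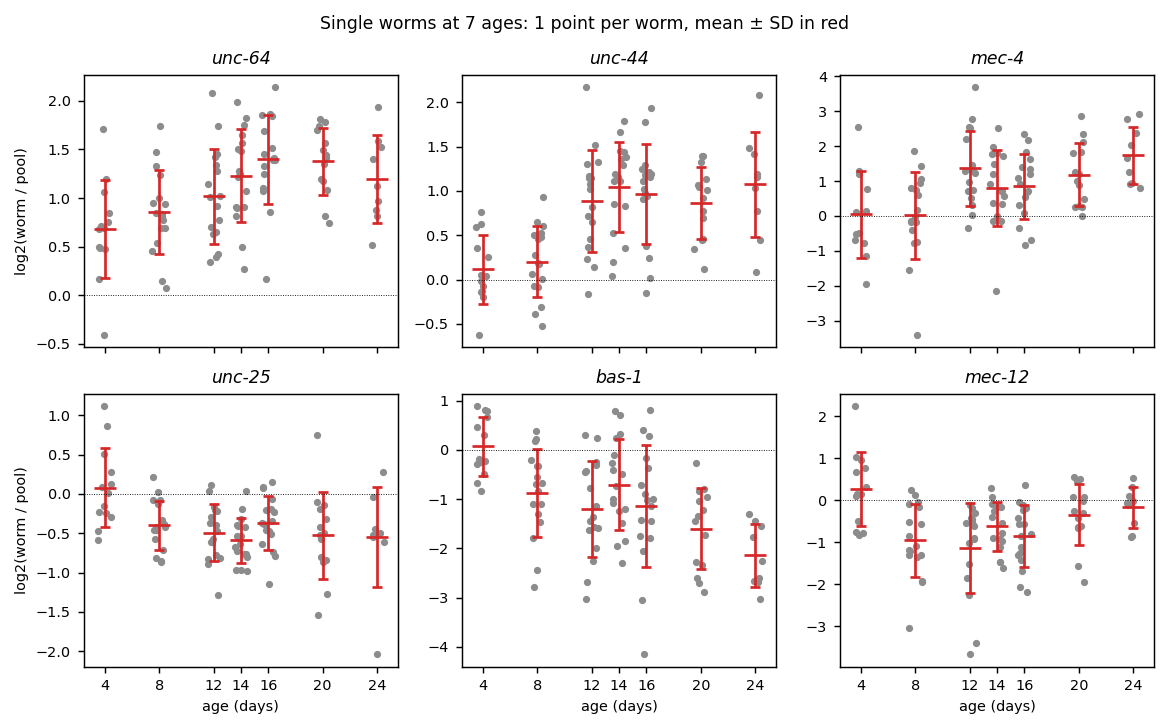
Log2 ratio of worm over pool for 6 genes at 7 ages, 1 grey point per worm (9 to 17 worms an age), with the mean and standard deviation in red. Ratios of unc-64, unc-44 and mec-4 are higher and those of unc-25 and bas-1 lower at older ages, while mec-12 is lowest at days 8 and 12, and only for bas-1 at day 24 do no worms overlap with day 4.

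Of 9 transmitter genes, 2 fell over the trend and none rose (22.2% called, against 27.8% of all genes). Of their slopes 4 of 9 were above 0, and the class median relative to day 4 was -0.43, -0.51, -0.41, -0.44, -0.43 and -0.34 at days 8, 12, 14, 16, 20 and 24, against medians within 0.01 of 0 over all genes. Whether this class differs from the release genes was not tested. The steepest fall of all members was that of bas-1 (C05D2.4), which encodes the decarboxylase that completes the synthesis of serotonin and dopamine. Its lowest, median and highest worm had -0.84, -0.19 and 0.88 at day 4, -2.80, -0.69 and 0.38 at day 8, -3.03, -1.36 and 0.31 at day 12, -2.30, -0.74 and 0.80 at day 14, -4.15, -1.02 and 0.80 at day 16, -2.88, -1.39 and -0.26 at day 20, and -3.03, -2.25 and -1.31 at day 24. At day 24 every worm lay below the lowest day 4 worm, while from day 8 to day 20 the ranges overlapped with day 4. The slope was -0.0895 ± 0.0159 per day (SE; adjusted p = 3.76e-06; -1.79 over 20 days), and the difference between day 24 and day 4 was -2.22 ± 0.40 (SE; adjusted p = 1.17e-05), which is 4.64-fold lower. Without day 4 the slope was -0.0720 per day (adjusted p = 0.00748).

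The enzyme and carrier genes of GABA, the main inhibitory transmitter of the worm's motor circuit, were lower than at day 4 at some or all later ages. The lowest, median and highest worm of unc-25 (Y37D8A.23), which encodes the enzyme that makes GABA, had -0.58, 0.01 and 1.11 at day 4, -0.87, -0.42 and 0.22 at day 8, -1.29, -0.47 and 0.12 at day 12, -0.98, -0.63 and 0.04 at day 14, -1.14, -0.36 and 0.16 at day 16, -1.55, -0.51 and 0.75 at day 20, and -2.04, -0.50 and 0.28 at day 24. Day 4 worms were highest as a group and overlapped with every later age. Differences from day 4 lay between -0.44 (day 16, adjusted p = 0.0356) and -0.67 (day 14, adjusted p = 0.000898). The slope was -0.0241 ± 0.00765 per day (SE; adjusted p = 0.0109; -0.48 over 20 days), but -0.00658 per day (adjusted p = 0.685) without day 4. At day 24 the difference was -0.63 ± 0.19 (SE; adjusted p = 0.0116), and -0.44 (adjusted p = 0.0879) without replicate 9, the worm at -2.04. The day 8 difference, -0.48 ± 0.16 (SE; adjusted p = 0.0347), was not called without day 4 replicate 1, 2 or 12 (adjusted p from 0.0653 to 0.0981).

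The vesicular GABA transporter gene unc-47 (T20G5.6) had medians of 0.58, -0.07, -0.05, 0.04, -0.01, 0.48 and 0.03 at days 4, 8, 12, 14, 16, 20 and 24. It was lower than at day 4 at days 8, 12 and 16, with differences of -0.71 ± 0.19 (SE; adjusted p = 0.00769), -0.51 ± 0.19 (SE; adjusted p = 0.0424) and -0.53 ± 0.19 (SE; adjusted p = 0.0385), and was not called at days 14, 20 and 24. Its slope was 0.00242 ± 0.00962 per day (SE; adjusted p = 0.889; 0.05 over 20 days), and 0.0313 per day (adjusted p = 0.0397) without day 4. The vesicular glutamate transporter gene eat-4 (ZK512.6) was lower than at day 4 at days 12 and 16, with differences of -0.64 ± 0.23 (SE; adjusted p = 0.0351) and -0.74 ± 0.23 (SE; adjusted p = 0.0151). The serotonin synthesis gene tph-1 (ZK1290.2), which encodes tryptophan hydroxylase, was lower than at day 4 at day 16 alone, with a difference of -1.12 ± 0.30 (SE; adjusted p = 0.00395), when 17 of 17 worms lay below the day 4 median. The tyrosine hydroxylase gene of dopamine synthesis, cat-2 (B0432.5), the vesicular monoamine transporter gene cat-1 (W01C8.6), the choline transporter gene cho-1 (C48D1.3) and ZC416.8, known here by its sequence name only, were called in no comparison as gene values, with slopes from -0.0121 to 0.0197. In cat-2, 1 probe named for B0432.5b was lower at day 8 than at day 4 (-1.02, limma adjusted p = 0.00429). That probe also passed the F test (adjusted p = 0.0322). The other cat-2 probes differed by -0.214 and 0.319 at day 8 and were not called. The ZC416.8 value averages probes named for transcripts a (slopes 0.0235 and -0.00494) and b (-0.00703), none of them called.

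Some of the lower values were preceded by day 4 ratios above the pool, and some of the higher values by ratios below it. Yet the pool was also 4 days old. Day 4 worms differed from the pool in 10 of 46 genes (21.7%, against 18.1% of all genes), 7 of them higher (7.89% of all genes were) and 3 lower (10.2% of all genes were). Higher were unc-64 (0.68, adjusted p = 2.62e-05), unc-13 (0.39, adjusted p = 0.0172), unc-47 (0.49, adjusted p = 0.0104), eat-4 (0.75, adjusted p = 0.000853), tph-1 (0.76, adjusted p = 0.0106), the channel gene tax-2 (0.40, adjusted p = 0.0231) and the odorant receptor gene odr-10 (0.38, adjusted p = 0.0127). Lower were snb-1 (-0.46, adjusted p = 0.00378), rab-3 (-0.49, adjusted p = 0.0369) and unc-119 (-0.80, adjusted p = 0.00127). Both snb-1 and unc-119 are the genes called higher than at day 4 at all 6 later ages. With all worms in Cy5 and the pool in Cy3, a dye effect of a probe and a difference between these worms and the pool cannot be told apart. A dye effect that is the same at every age leaves differences between ages as they are.

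Among the neuropeptide and dense-core vesicle genes limma called 0 of 3 over the trend (1 had an unadjusted p under 0.05), against 27.8% of all genes. None was called against day 4. Without day 24, egl-3 (C51E3.7) was called over the trend, at 0.0426 per day (adjusted p = 0.0434). The prohormone convertase gene egl-3 differed among ages by the F test (adjusted p = 0.0147), with medians of 0.46, -0.00459, 0.62, 1.06, 0.55, 0.97 and 0.12 at days 4, 8, 12, 14, 16, 20 and 24. Neither of its 2 probes passed the F test alone (adjusted p = 0.157 and 0.0526). The carboxypeptidase gene egl-21 (F01D4.4), whose product trims the peptides that the convertase cuts, had medians of -0.53, -0.48, -0.53, -0.36, -0.28, -0.19 and -0.59 at days 4, 8, 12, 14, 16, 20 and 24 (F adjusted p = 0.605). The dense-core vesicle membrane gene ida-1 (B0244.2) had age means within 0.34 log2 units of each other and was not called.

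From worm to worm, egl-3 and egl-21 varied together. Among 20 pairs of genes that act in the same complex, pathway or cell type, correlations were taken over worms after the mean of each age was removed. For this pair Pearson's r was 0.581 and Spearman's rho 0.541 over all worms, each with a two-sided permutation p of 1e-05, the smallest that 100000 resamples can give, and an adjusted p of 0.0002. The correlation was above 0 within all 7 ages, from 0.0170 to 0.849, and was 0.540 without the 2 worms farthest from the median of egl-3. Both values of a worm come from the same array. The egl-3 value is the mean of 2 probes, whose own r with each other was 0.0979, and egl-21 had 1 probe. No other pair passed the adjustment, and 4 of 20 had an unadjusted p under 0.05. The enzyme and carrier of GABA, unc-25 and unc-47, had an r of 0.0914 (permutation p = 0.359, adjusted p = 0.718), and the 2 subunits of the cyclic nucleotide-gated channel, tax-2 (F36F2.5) and tax-4 (ZC84.2), an r of 0.0372 (permutation p = 0.699, adjusted p = 0.923). The 3 unc-25 probes had a median r of -0.00795 with each other. A low r between 2 genes therefore does not show that their RNA varied independently.

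**Figure D4:**
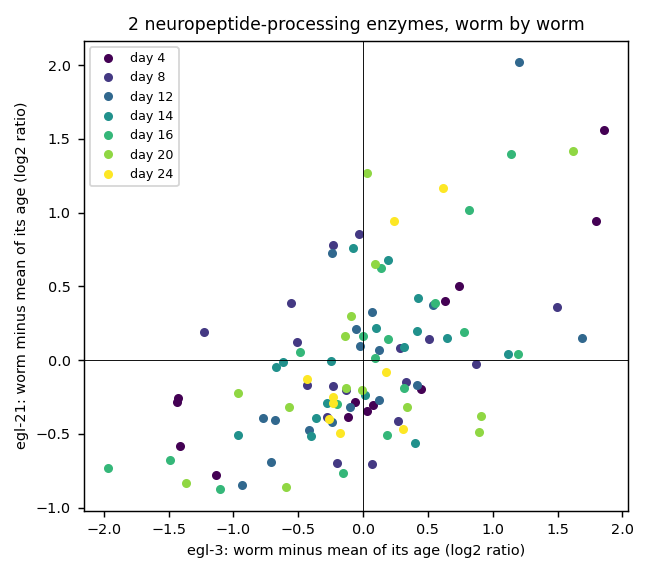
Ratio of each worm minus the mean of its age, for egl-3 (horizontal) and egl-21 (vertical), coloured by age. The points run from lower left to upper right, with a Pearson r of 0.581.

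Among channel and receptor genes, 2 of 6 rose and 1 fell over the trend, where 13.7% of all genes rose and 14.2% fell. Their class median stayed within 0.16 of day 4 at all later ages. The glutamate receptor gene glr-1 (C06E1.4), of the AMPA type, had the lowest, median and highest worm at -4.05, 0.56 and 1.42 at day 4, -2.80, 0.45 and 4.01 at day 8, -0.79, 1.20 and 3.79 at day 12, -2.46, 1.43 and 3.24 at day 14, -0.59, 1.09 and 3.62 at day 16, -1.61, 1.51 and 3.9 at day 20, and -1.22, 1.29 and 3.14 at day 24. The spread was wide at every age and the ranges overlapped, with standard deviations of 1.87, 1.63, 1.19, 1.43, 1.07, 1.56 and 1.33 from day 4 to day 24. The slope was 0.0797 ± 0.0246 per day (SE; adjusted p = 0.00856; 1.59 over 20 days), and the gene was higher than at day 4 by 1.71 ± 0.53 (SE; adjusted p = 0.0118) at day 14 and 1.76 ± 0.53 (SE; adjusted p = 0.00940) at day 16, but the difference at day 24, 1.43 ± 0.62 (SE; adjusted p = 0.106), did not pass. Without day 4 the slope was 0.0456 per day (adjusted p = 0.304). The calcium channel subunit gene unc-36 (C50C3.9) rose, with a slope of 0.0269 ± 0.0101 per day (SE; adjusted p = 0.0351; 0.54 over 20 days), and the NMDA receptor gene nmr-1 (F07F6.6) fell, with a slope of -0.0192 ± 0.00719 per day (SE; adjusted p = 0.0353; -0.38 over 20 days). Neither passed the F test or any comparison with day 4, and without day 4 the slopes were 0.0270 per day (adjusted p = 0.133) and -0.0155 per day (adjusted p = 0.181). Without day 8 neither was called (adjusted p = 0.133 for unc-36 and 0.111 for nmr-1). The presynaptic calcium channel gene unc-2 (T02C5.5), the second NMDA receptor gene nmr-2 (T01C3.10) and the GABA receptor gene unc-49 (T21C12.1) were called in no comparison.

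The touch receptor neuron genes split. All 4 differed among ages by the F test, which called 33% of all genes. At day 24 mec-4 (T01C8.7) was higher and mec-17 (F57H12.7) lower, while mec-12 (C44B11.3) and mec-7 (ZK154.3) were lowest early. The class median relative to day 4 was -1.02 at day 8 and -0.05 at day 24. The lowest, median and highest worm of mec-4, which encodes the pore of the touch channel, had -1.96, -0.18 and 2.54 at day 4, -3.40, -0.02 and 1.86 at day 8, -0.35, 1.28 and 3.7 at day 12, -2.14, 0.72 and 2.53 at day 14, -0.83, 0.92 and 2.34 at day 16, -0.01, 1.11 and 2.87 at day 20, and 0.81, 1.66 and 2.93 at day 24. Day 4 and day 8 worms centred near the pool, and 9 of 9 day 24 worms lay above the day 4 median, with overlapping ranges. The step came between days 8 and 12, 1.35 ± 0.36 (SE; adjusted p = 0.00474), and day 24 was higher than day 4 by 1.70 ± 0.46 (SE; adjusted p = 0.00519), which is 3.25-fold. The slope was 0.0814 ± 0.0186 per day (SE; adjusted p = 0.000321; 1.63 over 20 days), and 0.0815 per day (adjusted p = 0.00617) without day 4.

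The lowest, median and highest worm of mec-17, which encodes the enzyme that acetylates alpha tubulin, had -1.78, -0.32 and 1.87 at day 4, -3.15, -1.73 and -0.62 at day 8, -2.35, -1.20 and 0.11 at day 12, -2.34, -1.07 and -0.05 at day 14, -3.33, -1.13 and -0.05 at day 16, -2.55, -1.56 and 0.99 at day 20, and -2.04, -1.50 and -0.43 at day 24. It was lowest at day 8, when 17 of 17 worms lay below the day 4 median, and stayed lower at all later ages, with overlap at each. The difference was -1.45 ± 0.29 (SE; adjusted p = 0.000140) at day 8 and -1.18 ± 0.34 (SE; adjusted p = 0.00940) at day 24. The slope, -0.0289 ± 0.0146 per day (SE; adjusted p = 0.135; -0.58 over 20 days), did not pass the test. Without day 8 it was -0.0568 per day and passed (adjusted p = 0.00399).

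The alpha tubulin gene mec-12 was lower at the middle ages than at day 4. Its lowest, median and highest worm had -0.82, 0.16 and 2.23 at day 4, -3.04, -1.09 and 0.23 at day 8, -3.67, -0.61 and -0.12 at day 12, -1.62, -0.54 and 0.29 at day 14, -2.18, -0.81 and 0.37 at day 16, -1.96, -0.28 and 0.55 at day 20, and -0.87, -0.08 and 0.53 at day 24. Days 8, 12, 14 and 16 were lower than day 4, with differences of -1.23 ± 0.29 (SE; adjusted p = 0.00183) at day 8 and -1.41 ± 0.29 (SE; adjusted p = 0.000110) at day 12, while the differences at day 20, -0.62 ± 0.31 (SE; adjusted p = 0.154), and day 24, -0.44 ± 0.35 (SE; adjusted p = 0.444), did not pass. Over all ages the slope was -0.00233 ± 0.0153 per day (SE; adjusted p = 0.937; -0.05 over 20 days), and without day 4 it was 0.0553 per day (adjusted p = 0.0131), a rise from day 8 on. The beta tubulin gene mec-7 had medians of -0.20, -0.93, 0.02, 0.17, 0.35, -0.12 and 0.13 at days 4, 8, 12, 14, 16, 20 and 24 and was called by the F test (adjusted p = 0.0276) and by no comparison with day 4. Without day 4 its slope was 0.0608 per day (adjusted p = 0.00860). Tubulins are a family of near-identical genes, so probes for mec-7 and mec-12 may also read their relatives and these values are uncertain. Of 11 other touch neuron genes, limma called 0 over the trend (2 had an unadjusted p under 0.05) and 4 by the F test. Of all genes 27.8% were called over the trend and 33% by the F test, so the F count lies near the share of all genes.

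The 2 identity factor genes, unc-86 (a POU homeobox factor of touch and other neurons) and unc-3 (a factor of cholinergic motor neurons), were called in no comparison. Medians of unc-86 (C30A5.7) were 0.23, 0.00384, 0.18, 0.08, 0.03, 0.32 and 0.23 at days 4, 8, 12, 14, 16, 20 and 24, and those of unc-3 (Y16B4A.1) 0.26, -0.11, 0.29, 0.08, 0.18, 0.27 and -0.10 at days 4, 8, 12, 14, 16, 20 and 24. Their age means spanned 0.29 and 0.35 log2 units.

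Of 6 axon genes, 3 rose and none fell over the trend (50% called, against 27.8% of all genes). The steepest of these rises was that of unc-44 (B0350.2), which encodes the ankyrin that anchors membrane proteins to the axon's skeleton. Its lowest, median and highest worm had -0.62, 0.04 and 0.77 at day 4, -0.52, 0.19 and 0.93 at day 8, -0.16, 1.02 and 2.17 at day 12, 0.03, 1.16 and 1.78 at day 14, -0.15, 1.11 and 1.93 at day 16, 0.12, 0.96 and 1.40 at day 20, and 0.09, 1.16 and 2.08 at day 24. Ratios at days 4 and 8 lay together, those from day 12 on were higher, and 9 of 9 day 24 worms exceeded the day 4 median, with overlapping ranges. Day 12 was higher than day 8 by 0.68 ± 0.17 (SE; adjusted p = 0.00270), and day 24 higher than day 4 by 0.96 ± 0.22 (SE; adjusted p = 0.000641). The slope was 0.0521 ± 0.00915 per day (SE; adjusted p = 2.95e-06; 1.04 over 20 days), and 0.0440 per day (adjusted p = 0.00409) without day 4.

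The kinesin-1 heavy chain gene unc-116 (R05D3.7), whose motor carries cargo along axons and in other cells, had its lowest, median and highest worm at -1.26, -0.52 and 0.31 at day 4, -2.49, -0.75 and 0.29 at day 8, -0.65, 0.17 and 1.33 at day 12, -0.30, 0.28 and 1.48 at day 14, -0.73, 0.03 and 1.04 at day 16, -0.73, 0.30 and 0.84 at day 20, and -0.90, -0.07 and 1.34 at day 24. Day 8 was the lowest age, and 17 of 17 day 12 worms lay above the day 8 median. Day 12 was higher than day 8 by 0.99 ± 0.19 (SE; adjusted p = 5.63e-05), and higher than day 4 by 0.58 ± 0.20 (SE; adjusted p = 0.0261). The slope was 0.0439 ± 0.0104 per day (SE; adjusted p = 0.000512; 0.88 over 20 days), and 0.0490 per day (adjusted p = 0.00439) without day 4. Without day 8 it was 0.0239 per day and did not pass (adjusted p = 0.0900).

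The unc-119 (M142.1) gene, expressed across the nervous system and coding for a chaperone of lipid-modified proteins, had its lowest, median and highest worm at -2.44, -0.73 and 0.26 at day 4, -0.84, 0.11 and 0.96 at day 8, -0.94, 0.69 and 1.33 at day 12, -1.07, 0.39 and 1.61 at day 14, -1.23, 0.61 and 1.62 at day 16, -1.46, 0.32 and 1.23 at day 20, and -0.89, 0.16 and 1.65 at day 24. As in snb-1, the day 4 worms were lowest and no later step was called. The differences from day 4 lay between 0.91 (day 8, adjusted p = 0.0110) and 1.32 (day 16, adjusted p = 5.01e-05), all with overlapping ranges. The slope was 0.0370 ± 0.0131 per day (SE; adjusted p = 0.0240; 0.74 over 20 days), and turned to -0.00402 per day (adjusted p = 0.899) without day 4. At day 24 the difference, 0.93 ± 0.31 (SE; adjusted p = 0.0231), was 0.74 (adjusted p = 0.0975) without day 24 replicate 2 and 0.80 (adjusted p = 0.0594) without day 4 replicate 8. The vesicle kinesin gene unc-104 (C52E12.2), unc-33 (Y37E11C.1), which acts on axonal microtubules, and unc-76 (C01G10.11), needed for axon bundling, were called in no comparison, with slopes from -0.000336 to 0.00347.

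Of 5 sensory genes, 1 rose over the trend and none fell, where 13.7% of all genes rose and 14.2% fell. The genes called at a later age were both subunits of the cyclic nucleotide-gated channel of smell and temperature neurons. Its alpha subunit gene tax-4 had the lowest, median and highest worm at -2.26, -0.37 and 0.81 at day 4, -1.18, 0.17 and 0.93 at day 8, -0.46, 0.23 and 1.86 at day 12, -0.58, 0.48 and 0.99 at day 14, -0.83, -0.07 and 1.68 at day 16, -1.54, 0.33 and 1.54 at day 20, and 0.08, 0.32 and 1.42 at day 24. Day 4 was the lowest age, and 9 of 9 day 24 worms exceeded its median, with overlap. The slope was 0.0361 ± 0.0114 per day (SE; adjusted p = 0.0108; 0.72 over 20 days), but 0.0167 per day (adjusted p = 0.418) without day 4, and day 24 was higher than day 4 by 0.95 ± 0.29 (SE; adjusted p = 0.0124). The beta subunit gene tax-2 was lower than at day 4 at days 12 and 20, with differences of -0.50 ± 0.18 (SE; adjusted p = 0.0284) and -0.51 ± 0.18 (SE; adjusted p = 0.0360). Its medians were 0.49, -0.09, -0.08, 0.11, 0.000288, -0.11 and 0.22 at days 4, 8, 12, 14, 16, 20 and 24, highest at day 4. The TRPV channel gene osm-9 (B0212.5) had medians of -0.22, -0.06, -0.04, 0.08, -0.10, 0.18 and -1.07 at days 4, 8, 12, 14, 16, 20 and 24, with a day 24 difference of -0.89 ± 0.38 (SE; adjusted p = 0.104) that did not pass. The diacetyl receptor gene odr-10 (C53B7.5) and the olfactory G protein gene odr-3 (C34D1.3) were called at no later age.

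The G protein alpha genes goa-1 (C26C6.2) and egl-30 (M01D7.7) act against each other on transmitter release, goa-1 as a brake and egl-30 as a driver. Neither was called over the trend. Medians of goa-1 were -0.71, 0.50, 0.41, 0.10, -0.03, 0.12 and 0.47 at days 4, 8, 12, 14, 16, 20 and 24, and it was higher than at day 4 at day 12 alone, 0.77 ± 0.24 (SE; adjusted p = 0.0106), with 16 of 17 worms above the day 4 median. Medians of egl-30 were 0.13, 0.36, 0.50, 0.47, 0.35, 0.09 and 0.25 at days 4, 8, 12, 14, 16, 20 and 24, and it was called at no age.

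Between successive ages, members changed at 1 step beyond the first. Day 12 against day 8 called 4 of 46 genes, all higher (8.7%, against 15.6% of all genes, of which 7.76% were higher and 7.83% lower): unc-116, unc-44, mec-4 and unc-13. At the 4 later steps limma called 0 members, and 2, 2, 4 and 3 had an unadjusted p under 0.05. These steps called 0, 0.0159, 0.254 and 0% of all genes. With 17 or fewer worms an age this does not show that levels were constant after day 12.

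The rises of several genes rested on some of their probes. A test of whether the probes of a gene differed in slope (limma's diffSplice F, added after the probe values were seen) called 4 of the 20 members with several probes. That share lies near the 18.3% of all 2128 genes with several probes, so such differences are not particular to these genes. The 4 members were unc-44 (adjusted p = 2.87e-09), unc-13 (5.91e-06), rab-3 (8.4e-05) and unc-116 (0.0205). In unc-13 both probes named for transcript ZK524.2c rose, by 0.0966 and 0.0773 per day, while the other 4 probes, named for transcripts a and b, had slopes from -0.0164 to 0.0518 and were not called.

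The same held for the rab-3 probes: that named for transcript C18A3.6b rose by 0.0915 per day, and that for C18A3.6a had a slope of -0.00849. In unc-44 the probes named for B0350.2b and B0350.2c rose by 0.132 and 0.111. Of its other 4 probes, 1 named for B0350.2a rose by 0.0535 and 3 had slopes from -0.00739 to 0.0241. The 2 unc-116 probes carry the same transcript name and differed, at 0.0756 and 0.00972. In unc-64 the probe for F56A8.7b rose by 0.0544, and that for F56A8.7a had a slope of 0.0186 (adjusted p for a difference = 0.0744). Probe names show which transcript a probe was designed on, and transcripts share exons, so a probe can read more than 1 form. The gene values above are means over such probes, so a call on 1 probe can be absent from the gene value. In egl-30 the probe for M01D7.7a passed the F test (adjusted p = 0.0243), and in unc-33 1 probe did (adjusted p = 0.0427), while neither gene did. In snb-1, 1 of 2 probes was called over the trend (0.0211 per day, adjusted p = 0.0126). Of the 2 mec-7 probes, 1 passed the F test (adjusted p = 0.00381).

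**Figure D5:**
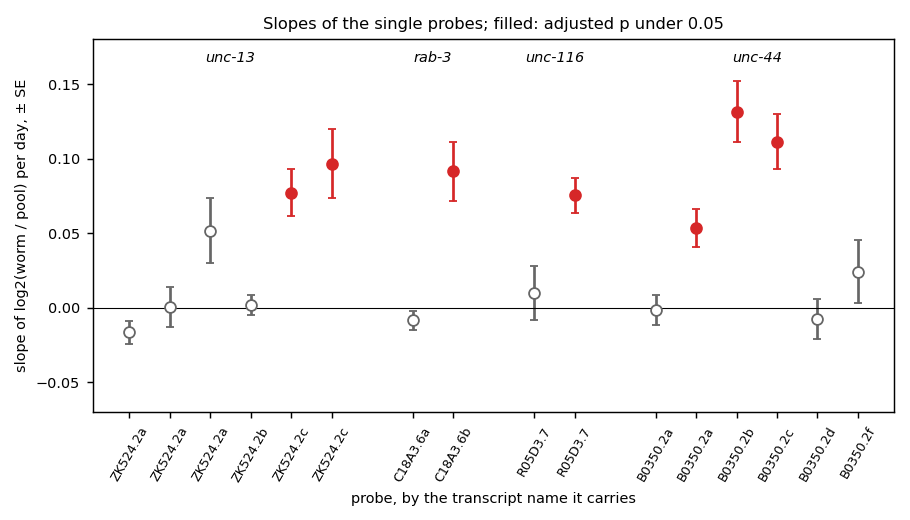
Slope of the log2 ratio per day (± 1 standard error) of each probe of unc-13, rab-3, unc-116 and unc-44, labelled by the transcript name the probe carries. Filled red points had an adjusted p under 0.05, and in each gene they lie above the probes of the same gene that were not called.

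No member passed the test for a change in the spread between worms of the same age. The median standard deviation of the members was 0.609, 0.516, 0.571, 0.503, 0.517, 0.508 and 0.474 at days 4, 8, 12, 14, 16, 20 and 24, and that of all genes 0.833, 0.780, 0.741, 0.721, 0.736, 0.688 and 0.659. Over the trend in absolute deviations limma called 0 of 46 members (3.41% of all genes, 0.206% wider and 3.21% narrower), 3 had an unadjusted p under 0.05 (snb-1, nmr-1 and unc-33), and 10 of 46 slopes were above 0.

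Beyond these members, limma called 58 of 223 other neuronal genes with the same roles over the trend (26%, against 27.8% of all genes). Of them 43 rose (19.3%, against 13.7% of all genes) and 15 fell (6.73%, against 14.2% of all genes). Among 23 other axon and transport genes 10 rose and 2 fell (52.2% called, against the same 27.8%). The kinesin light chain gene klc-2 rose by 0.0683 ± 0.00886 per day (SE; adjusted p = 8.05e-10), and klc-1, also a light chain gene, fell, at -0.0611 ± 0.0115 per day (SE; adjusted p = 1.33e-05). Light chains join cargo to the heavy chain that unc-116 encodes. The autophagy and axon guidance kinase gene unc-51 rose by 0.0724 ± 0.0130 per day (SE; adjusted p = 4.35e-06), and the dynactin gene dnc-1 by 0.05 ± 0.0101 per day (SE; adjusted p = 4.37e-05).

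Among 24 other vesicle and active zone genes 7 rose and 1 fell (33.3% called, against 27.8% of all genes), with itsn-1, the intersectin gene of endocytosis, at 0.0440 ± 0.0153 per day (SE; adjusted p = 0.0219) and the Eps15 gene ehs-1 at -0.0218 ± 0.00681 per day (SE; adjusted p = 0.00943). Among 14 other transmitter enzyme and transporter genes 3 rose and 2 fell (35.7% called). The GTP cyclohydrolase gene cat-4, whose product makes the cofactor of serotonin and dopamine synthesis, fell at -0.0661 ± 0.0178 per day (SE; adjusted p = 0.00234). The GABA uptake transporter gene snf-11 rose by 0.0360 ± 0.00797 per day (SE; adjusted p = 0.000188), and the acetylcholinesterase genes ace-2 and ace-3 rose by 0.0241 ± 0.00684 per day (SE; adjusted p = 0.00404) and 0.0617 ± 0.0206 per day (SE; adjusted p = 0.0163).

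Set against the same 27.8% of all genes, 12.5% to 42.9% were called in the lists that follow. Of 7 other neuropeptide processing genes 2 rose and 1 fell (42.9%), among them sbt-1, which encodes the helper protein of the convertase egl-3, at 0.0883 ± 0.0173 per day (SE; adjusted p = 2.68e-05). Among 44 other transmitter receptor genes 5 rose and 4 fell (20.5%), with the acetylcholine receptor subunit gene acr-12 at 0.0824 ± 0.0133 per day (SE; adjusted p = 4.29e-07) and the dopamine receptor gene dop-4 at -0.0468 ± 0.0115 per day (SE; adjusted p = 0.000813). Of 24 other ion channel genes 2 rose and 1 fell (12.5%), led by the potassium channel gene sup-9 at 0.0724 ± 0.0106 per day (SE; adjusted p = 3.3e-08). Of 36 other sensory and cilium genes 4 rose and 3 fell (19.4%), and of 21 other G protein pathway genes 3 rose and none fell (14.3%). Of 21 other neuronal transcription factor genes 7 rose and 1 fell (38.1%), with the steepest slope in the homeobox gene unc-39, 0.215 ± 0.0330 per day (SE; adjusted p = 1.15e-07).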

How the data were processed

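Per the labels' protocols, worms were picked at random, filmed, frozen singly, and their RNA went through 2 rounds of linear amplification; samples that failed quality control were discarded. The authors deposited a log ratio for each probe of an array, taken as log2 of worm (Cy5) over pool (Cy3), in 2 identical tables (largest difference 0). No source states the log base or direction; limma's defaults were taken, since the submitters' processing notes name limma (no version). How background and dyes were corrected is not given in the sources used here. Spot intensities were left aside, and precision is limited by how many arrays there are.

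All columns were matched to samples by label. Probes were averaged per sequence name (splice letter dropped), and 45 of 46 members were named through RefSeq's WBcel235 table. Missing values (0.537%) were left out. Linear models were fitted over 18889 genes with limma 3.58.1 in R 4.3.3 (lmFit, eBayes), with age in days (trend) or as a factor (F test, contrasts, day 4 against pool), with calls made below 0.05 after Benjamini-Hochberg adjustment. The trend in spread used absolute deviations from age means. Pairs of genes were tested with 100000 permutations within ages (scipy 1.17.1, pandas 2.3.3, Python 3.11.15). The worms are individuals of 1 cohort, and each p-value reflects the differences among them. In simulated data, slopes of 0.05 per day were called in 54% of changed genes and slopes of 0.1 in 98%, and day 24 differences of 1 in 35% and of 2 in 84%. Far fewer genes were changed there than were called in the real data, and the changed genes had the spreads of genes drawn from all. These shares therefore do not measure the power of the tests on the members. All members may be named; worm values are given for the 3 members of a class with the smallest F p, and up to 4 called genes of each other list are named. The members and lists were chosen with earlier results of these data known. Alternatives were quantile normalization, array weights, medians of probes, complete genes, a robust trended prior and left-out ages. Leaving out single worms and the test between probes were added after the data were seen. No sequences or coordinates are given, since no genome was used here.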

Additional observations from a re-analysis of the deposited data

Results flagged for a closer look

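At day 24, with 9 worms, 8 of the 46 genes had a worm far from the rest, with a gap to the nearest worm above Dixon's 95% critical value. That is 17.4% of them, against 8.4% of the 18150 genes with values in all 9 worms. Chance gives about 1 in 20 groups for normally distributed values, genes of 1 worm share its array, and whether the members differ from all genes in this was not tested. No other age was small enough to be examined in this way. In unc-25, replicate 9 was at -2.04, with the other 8 worms between -0.61 and 0.28. In osm-9 the same worm was at -4.19, with the others between -1.65 and 0.81. Replicate 2 was high in mec-7 (2.18, others up to 0.60), in unc-86 (1.98, others up to 0.67) and in unc-3 (0.922, others up to 0.23). In cat-1, replicate 3 was at -2.26 (others from -0.63), and in unc-2, replicate 5 was at -1.46 (others from -0.34). In tax-4, replicate 6 was at 1.42, with the others between 0.08 and 0.72. Of these 8 genes, unc-25 and tax-4 were called for day 24 against day 4, and without its far worm unc-25 was not (adjusted p = 0.0879).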

How the results depend on the processing

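Of 4870 values of single members under alternatives, 4765 kept their direction and their side of the threshold (or, uncalled in both settings, were counted as alike), 60 gained a call, 43 lost one and 2 turned. Both turned over the trend without day 4: mec-12 to 0.0553 per day (adjusted p = 0.0131) and unc-119 to -0.00402 (adjusted p = 0.899), which leave out the 13 youngest worms. Without day 4, unc-25, unc-36, glr-1, nmr-1 and tax-4 also lost their trend call; without day 8, unc-36, nmr-1 and unc-116 did; with array weights, unc-25, unc-36 and unc-119; with quantile normalization, unc-36. Trend calls were gained by unc-47, mec-7 and (turned) mec-12 without day 4, by snb-1, snt-1 and mec-17 without day 8, by unc-10, snt-1 and egl-3 without day 24, and by unc-10 among genes with a value on every array. The trend count was 10 to 16 of 46, against 13. Array weights gave 8 genes (7 higher, 1 lower), not 4, for day 12 against day 8, and 6, not 10, for day 4 worms against the pool. Quantile normalization gave 1 gene, not 0, for the trend in spread and 2 pairs, not 1 (snb-1 with unc-64, r = -0.340, permutation adjusted p = 0.0141, against -0.262 and 0.103); the cause was not tested. Without single worms, day 24 against day 4 called 7 to 11 genes and day 8 against day 4 called 5 to 9; unc-25 lost its day 8 call without day 4 replicate 1, 2 or 12 (-0.39, -0.44 and -0.41). No paired analysis was possible because each worm was frozen singly and measured on 1 array at 1 age.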
